A study of Mus musculus with 12 samples.

Results

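The HOX cluster genes were taken as the rows of the count table whose symbol is Hoxa, Hoxb, Hoxc or Hoxd followed by a number, and 39 of the 43271 rows met this rule: 11 Hoxa, 10 Hoxb, 9 Hoxc and 9 Hoxd genes. They were measured in poly(A) RNA of MC38CEA cells, which the labels call a mouse colon adenocarcinoma line. By the methods of the study, these cells express human carcinoembryonic antigen. The 12 libraries formed 4 groups of 3. Control cells carried a non-targeting shRNA and A17.2 cells carried an shRNA against Adam17, and each was left unstimulated or was treated for 6 h with human recombinant IL1β and mouse recombinant IFNγ, at 10 ng/ml each. All cells carried a lentiviral pLKO vector and were selected with puromycin as a population, so each shRNA was represented by 1 selected population. The control vector is SHC016 in the deposited notes, which call it toxic to cells and mention that its cassette was lost, but SHC002 in the methods of the study. Cells without a vector were not analysed here. The labels number the libraries of a group as biological replicates 1 to 3 without saying whether these were separate cultures, and the p-values cover no more than the variation among these libraries, which may be technical.

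HOX genes encode homeodomain transcription factors that give cells their position along the body axis. In mammals they lie in 4 clusters, in which the genes with low numbers (the 3′ end) are switched on early and towards the head and those with high numbers (5′ end) late and towards the tail. Genes with the same number in different clusters are paralogs. Silent HOX genes carry the repressive marks of Polycomb complexes, and adult cells and many cell lines keep a fixed set of active HOX genes that reflects their origin. In the hindgut and the limb the genes numbered 13 act last.

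The targeted gene Adam17 lay at 68.4 to 76.5 CPM (counts scaled to one common library total, with TMM factors) in unstimulated control cells and at 27.7 to 30.8 CPM in unstimulated A17.2 cells. With cytokines it lay at 95.5 to 129 CPM in control and 39.5 to 52.4 CPM in A17.2 cells. Its log2 fold change was -1.32 (SE 0.15, edgeR adjusted p = 0.000643) without and -1.28 (SE 0.15, edgeR adjusted p = 0.00102) with cytokines. The libraries held 16592831 to 35861103 counts. The 39 HOX genes together took 194 to 208 CPM in the 6 control libraries and 140 to 184 CPM in the 6 A17.2 libraries. The 12 epithelial and colon markers examined, among them Epcam, Krt8, Krt20, Vil1 and Cdx2, summed to 0.803 to 2.68 CPM in a library, with Epcam, Krt20 and Cdx2 at means under 0.03 CPM in every group, so the defining markers of the labelled tissue were next to absent. The 8 fibroblast and mesenchymal markers summed to 2540 to 4802 CPM. This sum was led by Vim, at group means of 2621 to 3220 CPM, while Thy1 of the same list had 0.0121 to 0.0506 CPM. The 6 leukocyte markers summed to 3.37 to 9.12 CPM and the 4 endothelial markers to 0.142 to 0.61 CPM. In A17.2 cells 1 marker of the first list and 1 of the second were higher: Ceacam1, at means of 1.03 and 0.924 CPM without and with cytokines against 0.0901 and 0.0313 CPM in control cells (edgeR adjusted p = 0.0363 and 0.0217), and Col1a1, at 12.1 and 16.2 against 1.31 and 1.53 CPM (edgeR adjusted p = 0.0379 and 0.0309). Over all genes that test called 2.86% higher without and 3.17% higher with cytokines. With the replicate number as a block, 15.9% of all genes were higher and 17.5% lower without cytokines, and 17.9% higher and 19.1% lower with them. Of the 7 mesenchymal markers tested, the fit with the block called 2 higher and 2 lower without cytokines, and 3 higher and 1 lower with them. Among these Col1a2, with means of 325 and 182 CPM in control and 59.4 and 43.4 CPM in A17.2 cells, was lower in both states (edgeR adjusted p = 0.00802 and 0.0177 with the block, 0.144 and 0.2 without it), and Pdgfrb was lower without cytokines (log2 fold change -0.80, edgeR adjusted p = 0.00328 with the block). Their part in the differences of HOX genes between the cells was not tested. In bulk RNA, fewer cells expressing a gene and less of its RNA per cell cannot be told apart.

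The upstream sequences of Hoxd13, its silent neighbour Hoxd12, Hoxd10 and Hoxd9 are shown because Hoxd13, Hoxd10 and Hoxd9 differed between A17.2 and control cells and Hoxd12 gave next to no reads. Each run is the plus strand of chromosome 2 in GRCm38.p6, 250 bases before the start that RefSeq gives, 5′ to 3′, in lower case with every CG dinucleotide in capitals.
Hoxd13, chr2:74667975-74668224: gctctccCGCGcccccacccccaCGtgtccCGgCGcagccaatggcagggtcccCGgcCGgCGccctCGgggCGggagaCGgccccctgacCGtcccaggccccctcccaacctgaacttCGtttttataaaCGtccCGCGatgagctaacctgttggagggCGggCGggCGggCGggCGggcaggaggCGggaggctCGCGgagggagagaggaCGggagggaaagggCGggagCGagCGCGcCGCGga
Hoxd12, chr2:74674763-74675012: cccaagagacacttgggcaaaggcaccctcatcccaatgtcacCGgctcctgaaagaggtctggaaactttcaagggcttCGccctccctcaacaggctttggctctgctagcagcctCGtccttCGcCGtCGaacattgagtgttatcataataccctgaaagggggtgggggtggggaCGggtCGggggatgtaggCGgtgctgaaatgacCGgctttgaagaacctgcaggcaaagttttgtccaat
Hoxd10, chr2:74691641-74691890: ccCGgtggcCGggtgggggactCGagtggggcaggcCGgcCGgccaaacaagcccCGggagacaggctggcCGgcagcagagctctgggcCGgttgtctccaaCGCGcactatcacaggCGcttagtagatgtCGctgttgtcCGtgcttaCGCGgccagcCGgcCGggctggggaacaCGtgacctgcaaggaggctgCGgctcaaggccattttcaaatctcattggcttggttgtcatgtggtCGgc
Hoxd9, chr2:74697513-74697762: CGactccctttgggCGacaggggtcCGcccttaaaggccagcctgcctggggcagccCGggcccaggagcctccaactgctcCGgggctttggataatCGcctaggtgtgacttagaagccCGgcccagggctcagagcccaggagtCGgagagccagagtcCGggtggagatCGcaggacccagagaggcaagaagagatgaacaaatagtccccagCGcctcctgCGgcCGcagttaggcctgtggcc
The Hoxd13 window held 31 CG, a number reached by 5.19% of the 32851 windows of this length, whose median was 6. Over the 24 HOX windows the median was 12.5, and the window of Hoxa13 held 35. The windows of Hoxd12, Hoxd10 and Hoxd9 held 10, 20 and 13, numbers reached by 37.8%, 17.9% and 31.5% of windows. TATAAA, searched on both strands, was in the Hoxd13 window and in none of the other windows shown, and 12.4% of all windows held it. CACGTG, the E-box, was in those of Hoxd13 and Hoxd10 and in 6.02% of all windows. CCAAT was in those of Hoxd13, Hoxd12 and Hoxd10 and in 33.8% of all windows. GGGCGG was in those of Hoxd13 and Hoxd9 and in 32.7% of all windows. These matches describe the letters of the windows only. RefSeq gave 24 windows for 22 of the 39 HOX genes.

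Of the 39 HOX genes, 26 were expressed by the rule of a mean raw count of at least 10 over the 12 libraries, and each of these had reads in all 12. Just inside the threshold was Hoxa2 (mean count 10.8) and just outside it were Hoxc8 (8.0) and Hoxb8 (3.75). The other 11 genes without expression had a mean under 3 and never more than 9 counts in a library. The clusters differed in how much of them was active. On chromosome 6 (chr6:52155590-52260880, minus strand), 10 of 11 Hoxa genes were expressed, and the exception was Hoxa11, whose highest count was 2. On chromosome 11 (chr11:96194316-96368256, plus strand), only the 4 adjacent genes Hoxb3 to Hoxb6 of 10 Hoxb genes were expressed, with Hoxb1 and Hoxb2 near 0 on the 3′ side and Hoxb7 and Hoxb9 near 0 on the 5′ side. On chromosome 15 (chr15:102921103-103036852, plus strand), 7 of 9 Hoxc genes were expressed, all but Hoxc8 and Hoxc12. On chromosome 2 (chr2:74668310-74765142, plus strand), 5 of 9 Hoxd genes were expressed: Hoxd4, Hoxd8, Hoxd9, Hoxd10 and, past the nearly silent Hoxd11 and Hoxd12, Hoxd13. Hoxd11 and Hoxd12 never had more than 2 and 4 counts in a library, while Hoxd13 had 44 to 1282. Evx2, the homeobox gene on the other side of Hoxd13, never had more than 4. The positions are those of GENCODE M21 on GRCm38.

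**Figure D1:**
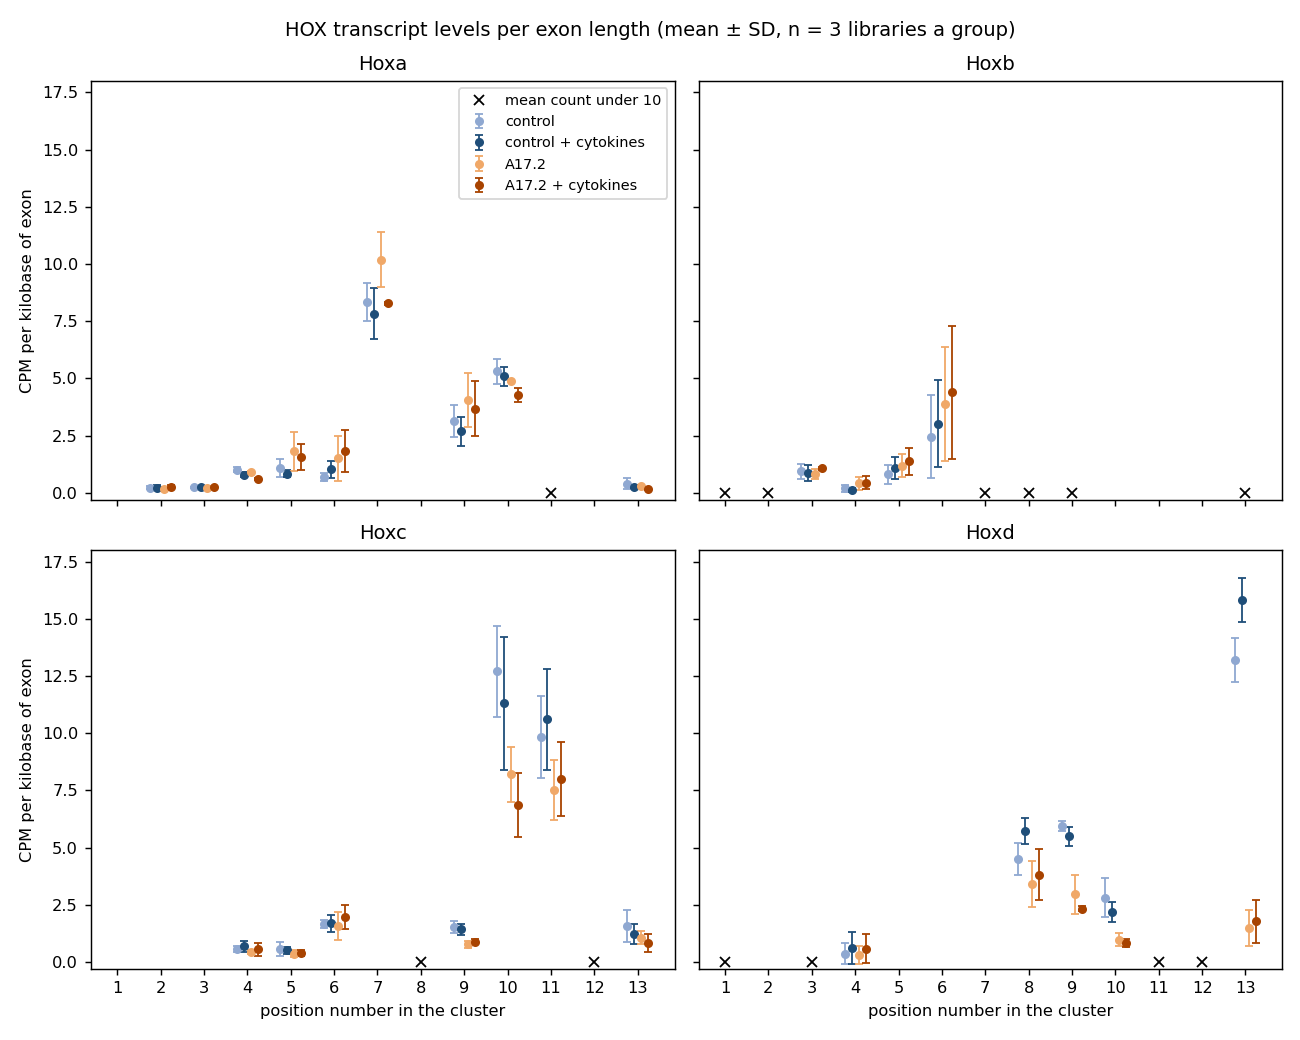
Levels of the HOX genes per exon length (CPM per kilobase of exon, y axis) against their number in the cluster (x axis), with 1 panel a cluster. Points are means of 3 libraries and bars the SD, and crosses mark the 13 genes with a mean raw count under 10. Hoxd13 leads in control cells, at 13.2 without and 15.8 with cytokines, and lies at 1.48 and 1.77 in A17.2 cells.

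Levels of different genes were compared per kilobase of exon. In unstimulated control cells Hoxd13 had the highest level, 13.2 ± 0.97 CPM per kb (SD, n = 3), and Hoxc10 followed at 12.7 ± 2.0, a difference smaller than their spread. Hoxc11 (9.83 ± 1.8) and Hoxa7 (8.34 ± 0.82) came next and also overlapped. Hoxd9 (5.94 ± 0.22), Hoxa10 (5.31 ± 0.54) and Hoxd8 (4.5 ± 0.7) followed, with SD bars that overlapped between neighbours, then Hoxa9 (3.14 ± 0.7) and Hoxd10 (2.81 ± 0.84). The remaining 17 expressed genes lay between 0.203 and 2.46. In unstimulated A17.2 cells the order began with Hoxa7 (10.2 ± 1.2), Hoxc10 (8.2 ± 1.2) and Hoxc11 (7.51 ± 1.3), neighbours whose spreads overlapped, and Hoxd13 was in place 12 at 1.48 ± 0.8. The 9 genes with the highest levels in unstimulated control cells were all numbered 7 to 13. With cytokines Hoxb6 (3.02 ± 1.9) lay above Hoxa9 (2.7 ± 0.63) and Hoxd10 (2.2 ± 0.44) in control cells, with SD bars that overlapped. Genes numbered 1 to 4 stayed at or below 1.07 in every group mean.

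A17.2 cells were compared with control cells to ask how the populations with these shRNAs differ. The study reports that A17.2 lowered ADAM10 as well as ADAM17, and it presumes off-target effects on Nos2. Effects of less Adam17, less ADAM10, other targets of the shRNA, the control shRNA and the selection of each population cannot be told apart here. Without cytokines, 4 of the 27 HOX genes tested were lower and 0 higher in A17.2 cells (edgeR quasi-likelihood test, adjusted p under 0.05): Hoxd13, Hoxd10, Hoxd9 and Hoxc9. Over all 15649 genes tested 3.57% were lower and 2.86% higher. With cytokines, 3 of the 27 were lower and 0 higher, Hoxd13, Hoxd9 and Hoxd10, against 3.68% lower and 3.17% higher over all genes. The median log2 fold change of the 27 HOX genes was -0.18 without and -0.26 with cytokines, against -0.01 and 0.02 over all genes tested. The numbers with an unadjusted p under 0.05 were 5 and 7 of 27, against 19% and 21% of all genes, and DESeq2 called 0 HOX genes higher in either state. The 2 comparisons used different libraries of the same 2 selected populations. Libraries with the same number deviated together, and with the replicate number as a block there were 8 lower and 6 higher calls without cytokines and 8 lower and 5 higher with them. With that block 17.5% of all genes were lower and 15.9% higher without cytokines, and 19.1% lower and 17.9% higher with them. The number of calls without cytokines fell to 2 without control library 1 or control library 2, to 1 without A17.2 library 2 and to 2 without A17.2 library 3, all unstimulated.

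**Figure D2:**
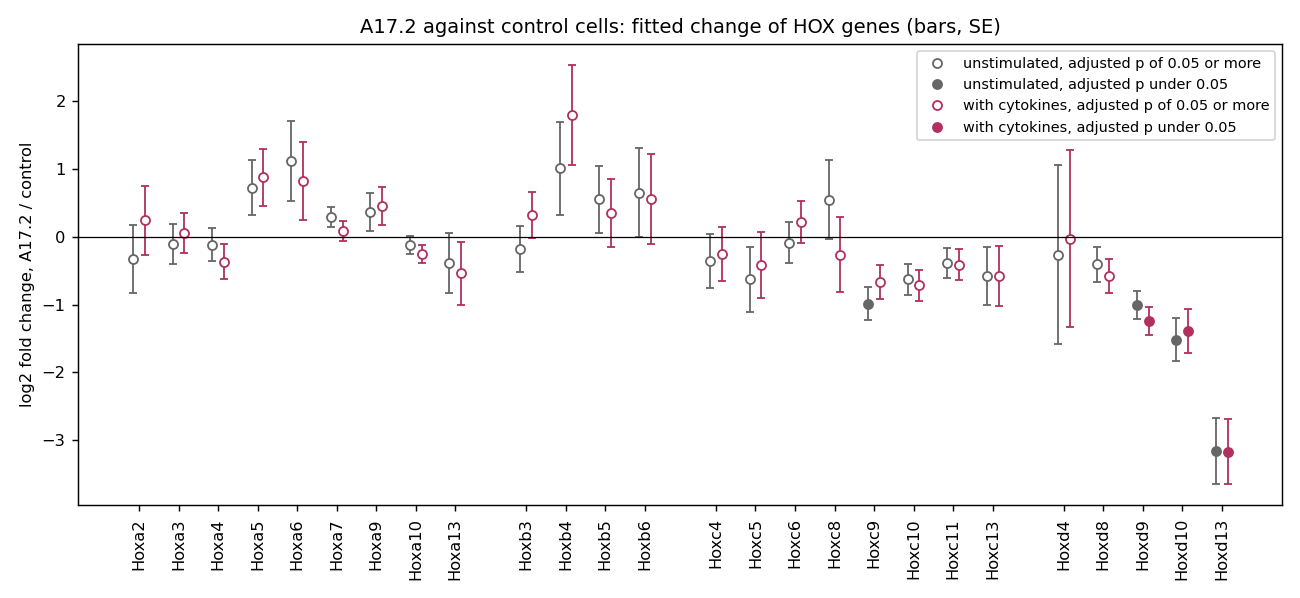
Fitted log2 fold change of A17.2 against control cells (y axis) for 26 of the 27 HOX genes tested (x axis, by cluster and number), without (grey) and with (red) cytokines. Bars are SE, and filled points passed an edgeR adjusted p of 0.05. The Hoxd genes step down from Hoxd8 (-0.41 without cytokines) to Hoxd13 (-3.16).

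Hoxd13, which patterns digits and the distal hindgut and urogenital tract, differed most. It lay at 33.9, 30.0 and 34.4 CPM in the unstimulated control libraries 1 to 3 and at 38.7, 37.3 and 42.0 CPM with cytokines. In A17.2 cells it lay at 1.37, 4.87 and 4.75 CPM without and 1.70, 5.59 and 5.88 CPM with cytokines. Every A17.2 library was below every control library, and library 1 was the lowest of both A17.2 groups. The log2 fold change was -3.16 (SE 0.49, edgeR adjusted p = 0.00342) without and -3.17 (SE 0.48, edgeR adjusted p = 0.0043) with cytokines, or 8.96-fold and 9.0-fold lower. It was called without each of the 12 libraries in turn, at log2 fold changes of -3.43 to -2.77 and -3.45 to -2.78.

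Hoxd10, which patterns the hindlimb and its motor neurons, lay at 6.79, 4.68 and 3.84 CPM in unstimulated control cells and 2.40, 1.44 and 1.49 CPM in unstimulated A17.2 cells. With cytokines it lay at 4.89, 3.34 and 3.75 CPM in control and 1.77, 1.65 and 1.14 CPM in A17.2 cells. The 6 A17.2 libraries were all below the 6 control libraries. It fell by 1.52 on the log2 scale without cytokines (SE 0.32, edgeR adjusted p = 0.0166) and by 1.39 with them (SE 0.32, edgeR adjusted p = 0.0268). The call without cytokines was lost without control library 1, A17.2 library 2 or A17.2 library 3 (edgeR adjusted p 0.0583 to 0.0697), and the call with cytokines without any 1 of the 6 stimulated libraries (0.0577 to 0.0959). Both calls were lost where the compared groups alone were fitted (edgeR adjusted p = 0.0806 and 0.0694).

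Hoxd9, which acts with its paralogs in limb and spinal cord patterning, lay at 12.5, 13.2 and 12.4 CPM in unstimulated control and 8.30, 5.90 and 4.68 CPM in unstimulated A17.2 cells. With cytokines it lay at 11.5, 11.0 and 12.7 CPM in control and 5.08, 4.68 and 5.12 CPM in A17.2 cells. Here too the 12 values did not overlap between the cells. It fell by 1.01 on the log2 scale (SE 0.20, edgeR adjusted p = 0.014) without and by 1.24 (SE 0.21, edgeR adjusted p = 0.00653) with cytokines. The call without cytokines was lost without control library 2 (edgeR adjusted p = 0.067) or A17.2 library 2 (0.0556) and in the fit of the compared groups alone (0.104), and the call with cytokines was kept in each of these refits.

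Hoxd8, the next gene towards the 3′ end, lay at 14.5, 11.5 and 11.0 CPM without and 17.0, 14.0 and 16.1 CPM with cytokines in control cells and at 12.4, 8.47 and 7.00 CPM without and 14.1, 8.80 and 8.61 CPM with cytokines in A17.2 cells. The groups overlapped, and library 1 was the highest of each group. Its log2 fold changes of -0.41 and -0.58 (both SE 0.25) did not pass the edgeR test (adjusted p = 0.454 and 0.217) and did with the replicate block (edgeR adjusted p = 0.0282 and 0.00289). Along the cluster the log2 fold change without cytokines was -0.41 at Hoxd8, -1.01 at Hoxd9, -1.52 at Hoxd10 and -3.16 at Hoxd13, and with cytokines it was -0.58, -1.24, -1.39 and -3.17. Hoxd4, the expressed Hoxd gene nearest the 3′ end, had -0.26 (SE 1.32) and -0.03 (SE 1.30). These genes lie in 1 locus, and the order of their changes was not tested. Summed over the 9 Hoxd genes, the 6 control libraries held 60.0 to 76.6 CPM and the 6 A17.2 libraries 18.0 to 26.9 CPM. The sum of the 39 HOX genes without Hoxd13 was 159 to 176 CPM in control and 135 to 183 CPM in A17.2 libraries, which overlapped.

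**Figure D3:**
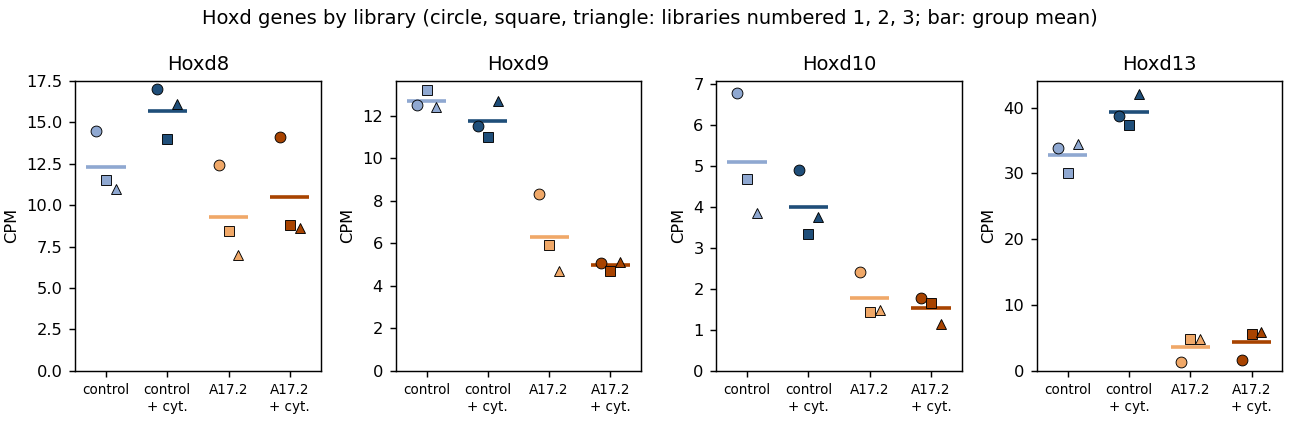
CPM (y axis) of Hoxd8, Hoxd9, Hoxd10 and Hoxd13 in each library, by group (x axis). Circles, squares and triangles are the libraries numbered 1, 2 and 3, and horizontal bars the group means. All 6 A17.2 libraries lie below all 6 control libraries for Hoxd9, Hoxd10 and Hoxd13, and not for Hoxd8.

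In the Hoxc cluster, Hoxc9, which sets thoracic motor neuron identity, lay at 3.46, 3.26 and 4.39 CPM in unstimulated control and 1.75, 1.61 and 2.25 CPM in unstimulated A17.2 cells. With cytokines it lay at 2.98, 3.26 and 4.08 CPM in control and 2.13, 2.43 and 1.94 CPM in A17.2 cells. The 6 values of each kind of cell did not overlap. It fell by 0.99 on the log2 scale without cytokines (SE 0.25, edgeR adjusted p = 0.0367), and with cytokines the log2 fold change was -0.67 (SE 0.25, edgeR adjusted p = 0.138, and 0.0182 with the replicate block). The call without cytokines was lost when any 1 of 10 libraries was left out (edgeR adjusted p 0.0503 to 0.135), all but control library 3 and A17.2 library 1 with cytokines. It was also lost in the fit of the compared groups alone (edgeR adjusted p = 0.166) and with no filter on low counts (0.203).

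Hoxc10, a marker of lumbar motor neurons and hindlimb, lay at 19.8, 26.9 and 26.0 CPM without and 15.3, 25.5 and 23.7 CPM with cytokines in control cells and at 13.4, 15.6 and 18.0 CPM without and 10.2, 13.5 and 15.5 CPM with cytokines in A17.2 cells. In 6 of 6 pairs of libraries that share number and state it was lower in A17.2 cells. Here and below, such pairs come from the same selected populations and were not counted over all genes. Its log2 fold changes were -0.63 (SE 0.23) and -0.72 (SE 0.23), with an edgeR adjusted p of 0.15 and 0.0909, and of 0.000507 and 0.000207 with the block. Hoxc11, its 5′ neighbour, lay at 15.7, 22.0 and 21.9 CPM without and 16.4, 24.6 and 23.5 CPM with cytokines in control and at 13.0, 14.6 and 18.0 CPM without and 12.4, 17.5 and 18.5 CPM with cytokines in A17.2 cells. Hoxc13, a hair follicle gene, lay at 2.38, 3.40 and 5.80 CPM without and 1.91, 3.10 and 3.99 CPM with cytokines in control and at 2.03, 2.37 and 3.34 CPM without and 1.28, 1.65 and 3.11 CPM with cytokines in A17.2 cells. Both overlapped between the cells, were lower in A17.2 cells in 6 of 6 pairs and passed the edgeR test only with the block (adjusted p = 0.0118 and 0.00705 for Hoxc11, 0.0424 and 0.0292 for Hoxc13).

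The 3′ genes of the same cluster gave no call. Hoxc4, lower in A17.2 cells in 6 of 6 pairs, lay at 1.74, 1.56 and 1.07 CPM without and 2.38, 1.65 and 1.17 CPM with cytokines in control and at 1.37, 0.995 and 1.05 CPM without and 2.25, 1.13 and 0.934 CPM with cytokines in A17.2 cells. Hoxc5 lay at 2.54, 1.94 and 0.767 CPM without and 1.97, 1.61 and 1.08 CPM with cytokines in control and at 1.62, 0.652 and 1.12 CPM without and 1.61, 0.911 and 0.934 CPM with cytokines in A17.2 cells. Hoxc6 lay at 4.12, 4.39 and 3.54 CPM without and 4.41, 4.75 and 3.00 CPM with cytokines in control and at 5.46, 3.02 and 2.86 CPM without and 6.06, 3.64 and 4.43 CPM with cytokines in A17.2 cells. Library 1 was the highest of its group for Hoxc5 in all 4 groups, and the cells overlapped for all 3 genes. Hoxc8 had 3 to 10 counts in control and 4 to 17 in A17.2 libraries. Hoxc5 and Hoxc10 share 166 exon bases on the same strand, so reads of the much stronger Hoxc10 could be split between them.

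Among the Hoxa and Hoxb genes the differences were smaller against their spread. None of the 14 that passed the filter was called by the edgeR test in either comparison. With the replicate block 6 of these 14 were higher without cytokines (Hoxa5, Hoxa6, Hoxa9, Hoxb4, Hoxb5 and Hoxb6) and 0 lower. With cytokines 5 were higher, among them Hoxa5, Hoxa9, Hoxb4 and Hoxb6, and 0 lower. All 8 called Hoxc and Hoxd genes were lower in both states. The same fit called 15.9% of all genes higher and 17.5% lower without cytokines, and 17.9% higher and 19.1% lower with them. Hoxa5, needed for lung development, lay at 2.88, 1.84 and 1.45 CPM without and 1.85, 1.61 and 1.31 CPM with cytokines in control and at 5.09, 3.33 and 1.85 CPM without and 4.11, 2.56 and 2.07 CPM with cytokines in A17.2 cells. Its log2 fold changes were 0.72 (SE 0.41) and 0.88 (SE 0.42), with an edgeR adjusted p of 0.393 and 0.263, and of 0.0148 and 0.00785 with the block. Hoxb4, known for expanding blood stem cells, lay at 0.978, 0.331 and 0.256 CPM without and 0.596, 0.196 and 0.235 CPM with cytokines in control and at 1.94, 0.823 and 0.508 CPM without and 1.92, 0.564 and 0.968 CPM with cytokines in A17.2 cells. Its log2 fold changes were 1.01 (SE 0.68) and 1.80 (SE 0.74), with an edgeR adjusted p of 0.507 and 0.184, and of 0.0199 and 0.00165 with the block. For both genes the cells overlapped and each A17.2 library was above the control library of the same number and state.

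Hoxb6 lay at 8.67, 3.92 and 1.92 CPM without and 10.1, 4.67 and 3.05 CPM with cytokines in control and at 13.3, 5.59 and 4.03 CPM without and 15.2, 5.42 and 5.33 CPM with cytokines in A17.2 cells. Hoxb5 lay at 3.44, 2.22 and 1.07 CPM without and 4.65, 2.32 and 2.16 CPM with cytokines in control and at 4.78, 3.22 and 1.92 CPM without and 5.75, 3.12 and 2.63 CPM with cytokines in A17.2 cells. Both were higher in A17.2 cells in 6 of 6 pairs and highest in library 1 of each group. With the block the edgeR adjusted p of Hoxb6 was 0.00499 without and 0.0178 with cytokines, and that of Hoxb5 0.0361 and 0.19. Hoxa9, a regulator of blood progenitors and leukaemia, lay at 21.3, 17.7 and 13.6 CPM without and 19.1, 13.5 and 12.6 CPM with cytokines in control and at 30.1, 20.2 and 17.7 CPM without and 28.0, 16.7 and 16.8 CPM with cytokines in A17.2 cells, again with 6 of 6 pairs higher. With the block its edgeR adjusted p was 0.0179 without and 0.00603 with cytokines, at log2 fold changes of 0.36 and 0.43. Hoxa6 lay at 0.687, 0.709 and 0.426 CPM without and 1.25, 0.863 and 0.610 CPM with cytokines in control and at 2.12, 1.44 and 0.399 CPM without and 2.37, 1.65 and 0.761 CPM with cytokines in A17.2 cells. It was higher in A17.2 cells in 5 of 6 pairs, and its edgeR adjusted p with the block was 0.0175 without and 0.0591 with cytokines.

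Hoxa7 and Hoxa10, both strong, gave no call with or without the block. Hoxa7 lay at 21.7, 26.4 and 23.8 CPM without and 21.3, 26.0 and 20.3 CPM with cytokines in control and at 33.5, 28.0 and 26.8 CPM without and 23.8, 23.6 and 24.1 CPM with cytokines in A17.2 cells. Hoxa10, which acts in the uterus and the lumbar spine, lay at 15.8, 19.3 and 17.0 CPM without and 15.2, 17.9 and 16.9 CPM with cytokines in control and at 16.0, 15.9 and 15.9 CPM without and 12.9, 14.3 and 14.7 CPM with cytokines in A17.2 cells. Its log2 fold changes, -0.12 (SE 0.14) and -0.26 (SE 0.14), had among the smallest errors of the 27 genes. Hoxa3, needed for the thymus, lay at 1.59, 1.46 and 1.32 CPM without and 1.61, 1.45 and 1.69 CPM with cytokines in control and at 1.75, 0.926 and 1.38 CPM without and 1.89, 1.30 and 1.73 CPM with cytokines in A17.2 cells. Hoxa4 lay at 1.59, 1.46 and 1.79 CPM without and 1.43, 1.26 and 1.13 CPM with cytokines in control and at 1.50, 1.54 and 1.41 CPM without and 0.913, 0.997 and 1.04 CPM with cytokines in A17.2 cells. Hoxb3 lay at 5.58, 3.64 and 2.77 CPM without and 5.36, 2.83 and 2.77 CPM with cytokines in control and at 4.65, 3.19 and 2.76 CPM without and 4.72, 4.68 and 4.18 CPM with cytokines in A17.2 cells. None of these 3 was called in any fit reported here.

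Hoxa2 and Hoxa13, towards the ends of the Hoxa cluster, had few counts. Hoxa2, which patterns the branchial arches, lay at 0.476, 0.473 and 0.298 CPM without and 0.179, 0.432 and 0.563 CPM with cytokines in control and at 0.499, 0.309 and 0.181 CPM without and 0.365, 0.650 and 0.415 CPM with cytokines in A17.2 cells. Hoxa13, the paralog of Hoxd13 that acts with it in digits, lay at 0.529, 0.756 and 1.75 CPM without and 0.536, 0.549 and 0.797 CPM with cytokines in control and at 0.874, 0.617 and 0.798 CPM without and 0.487, 0.347 and 0.450 CPM with cytokines in A17.2 cells. The cells overlapped for both. Hoxa13 stayed under the level of Hoxd13 in every group, also per kilobase, and its log2 fold changes of -0.39 (SE 0.44) and -0.54 (SE 0.47) had edgeR adjusted p of 0.744 and 0.588. Of the other genes numbered 13, Hoxb13 had a read in 2 libraries only.

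Counted without a test, the 6 A17.2 libraries were all below the 6 control libraries for 4 of the 27 HOX genes tested (Hoxc9, Hoxd9, Hoxd10 and Hoxd13) and all above for 0. Over all 15649 genes, 4.67% lay all below and 4.72% all above. Hoxb8, under the filter on low counts, had 8, 2 and 9 counts in unstimulated and 7, 8 and 7 in stimulated control libraries, against 0, 2 and 1 and 1, 0 and 0 in A17.2 libraries. The sums were 41 and 4 counts. Without the filter its edgeR adjusted p was 0.195 without and 0.0125 with cytokines, and DESeq2 called it lower with cytokines. Its values were picked out after they had been seen.

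The cytokines were compared with no stimulation in each kind of cell to ask which genes respond. No HOX gene passed the test in control or in A17.2 cells (0 of 27 in each, edgeR, and 0 of 28 by DESeq2), while over all genes 3.14% rose and 0.185% fell in control cells and 3.85% rose and 0.415% fell in A17.2 cells. At an unadjusted p under 0.05 there were 0 of 27 in control cells and 1 of 27, Hoxa4, in A17.2 cells, against 11.8% of all genes in each. Hoxa4 had a log2 fold change of -0.60 (SE 0.25, edgeR adjusted p = 0.35) there and -0.35 (SE 0.25) in control cells. The highest value in control cells was 1.04 (Hoxc8), and in A17.2 cells the values ran from -0.82 (Hoxa13) to 0.94 (Hoxd4), all genes with few counts. For Hoxd13 the log2 fold change was 0.26 (SE 0.44) in control and 0.26 (SE 0.47) in A17.2 cells. The strong genes Hoxa7 and Hoxa10 had the narrowest errors. Hoxa7 gave -0.09 (SE 0.15) in control and -0.30 (SE 0.15) in A17.2 cells, and Hoxa10 gave -0.05 (SE 0.14) and -0.19 (SE 0.14). With the replicate block there were again 0 HOX calls, with a lowest edgeR adjusted p of 0.0768 in control and 0.0806 in A17.2 cells, where 10.4% of all genes rose and 8.88% fell in control cells and 10.6% rose and 6.94% fell in A17.2 cells.

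**Figure D4:**
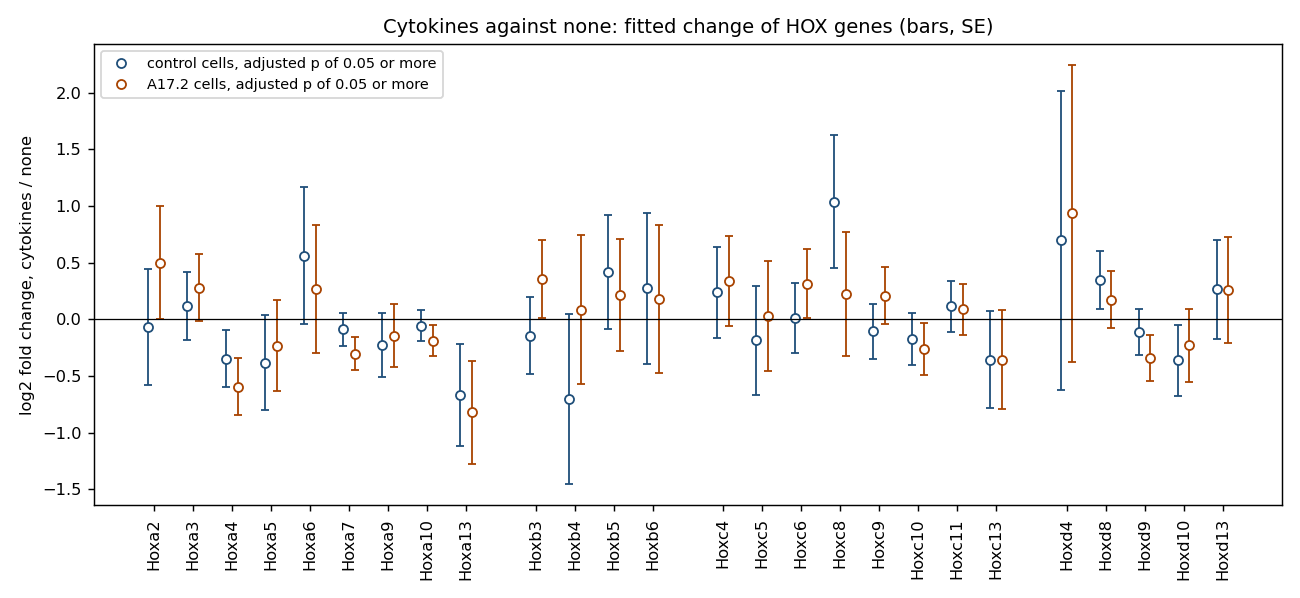
Fitted log2 fold change with cytokines against none (y axis) for 26 of the 27 HOX genes tested (x axis, by cluster and number), in control (blue) and A17.2 (brown) cells. Bars are SE, and no point passed an edgeR adjusted p of 0.05. The values lie between -0.82 and 1.04.

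The difference of the 2 cytokine responses was tested as an interaction. It was called for 0 of the 27 HOX genes and for 0% of all genes (edgeR), in either direction, with 0 of 27 and 209 of 15649 at an unadjusted p under 0.05 and 0 of 16 HOX genes called by DESeq2. With the block there were 0 HOX calls, and 0.409% of all genes had a higher and 0.00639% a lower response in A17.2 cells. For Hoxd13 the difference was -0.01 on the log2 scale (SE 0.67), and over the 27 genes it ran from -0.81 (Hoxc8) to 0.79 (Hoxb4).

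Libraries with the same number resembled each other across groups for many HOX genes, and for a similar share of all genes tested. The libraries numbered 1 stood apart in each group: over all genes, their chi-square per degree of freedom against library 2 or 3 was 78.9 to 230, against 20.2 to 35.3 between libraries 2 and 3. In a test chosen after the values had been seen, the replicate number passed for 17 of the 27 HOX genes, or 63.0% (edgeR F-test in the fit with the block), against 68.1% of all genes. Of the 17, 13 were highest and 3 lowest in the libraries numbered 1, and these directions were not counted over all genes. Hoxd4, a gene of the neck region and hindbrain, had the largest log2 differences, -2.75 for number 2 and -3.16 for number 3 against number 1. It lay at 2.59, 0.473 and 0.0852 CPM without and 4.23, 0.628 and 0.563 CPM with cytokines in control and at 2.28, 0.377 and 0.0363 CPM without and 3.90, 0.434 and 0.830 CPM with cytokines in A17.2 cells, so that in each group library 1 was far above the others. Hoxd4 shares 1154 of 2948 exon bases with Gm28230 and 347 with the antisense Hoxd3os1, so its reads may be split with these genes, and no source used here states the strand setting of the counting. The 3 genes lowest in libraries 1 were Hoxc10, Hoxc11 and Hoxc13 of the 5′ end of the Hoxc cluster. Hoxa4, Hoxa7, Hoxa10, Hoxc9, Hoxd9 and Hoxd13 were among the 10 genes in which the number did not pass. This test takes the effect of the number as the same in all groups, so it does not address one confined to A17.2 cells. There Hoxd13 lay at 1.37 CPM in library 1 against 4.87 and 4.75 CPM without cytokines. With cytokines it lay at 1.70 against 5.59 and 5.88 CPM, while in control cells library 1 lay between the others. Without the 4 libraries numbered 1, Hoxc10, Hoxd9, Hoxd10 and Hoxd13 were called without cytokines and these with Hoxd8 with cytokines, all lower in A17.2 cells.

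**Figure D5:**
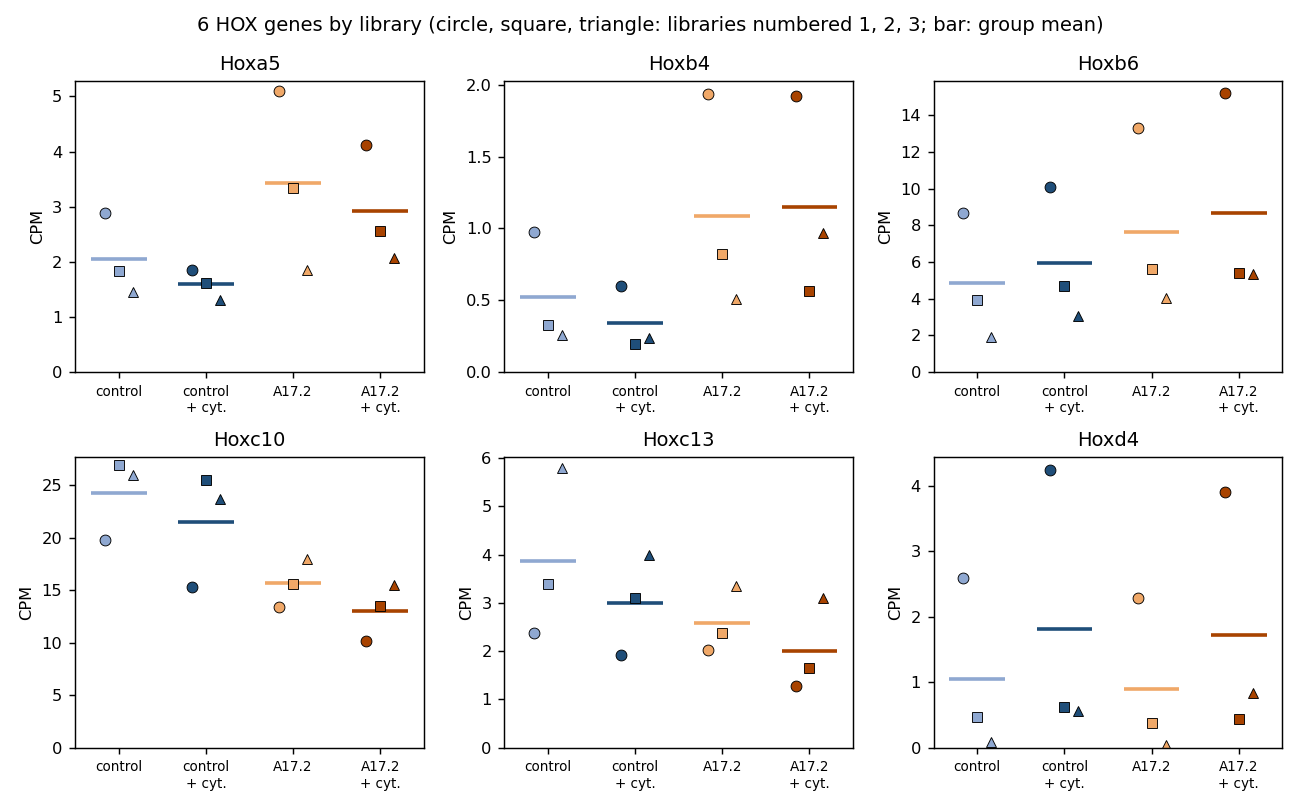
CPM (y axis) of Hoxa5, Hoxb4, Hoxb6, Hoxc10, Hoxc13 and Hoxd4 in each library, by group (x axis). Circles, squares and triangles are the libraries numbered 1, 2 and 3, and horizontal bars the group means. Library 1 is the highest of each group for Hoxa5, Hoxb4, Hoxb6 and Hoxd4 and the lowest for Hoxc10 and Hoxc13.

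The partners and regulators of HOX genes were read from lists. Of 9 HOX cofactors of the PBX, MEIS and PREP families, which bind DNA together with HOX proteins, 8 were tested and 0 called in any of the 5 comparisons (edgeR). At an unadjusted p under 0.05 there were 0 to 2 of 8 in a comparison. In the fit with the block, Pknox1 was lower in A17.2 cells in both states (log2 fold changes -0.44 and -0.53, edgeR adjusted p = 0.00298 and 0.000843) and Meis3 with cytokines (-0.63, edgeR adjusted p = 0.00307). Of 24 Polycomb genes and 9 Trithorax and H3K27 demethylase genes, all were tested and 0 called (edgeR), with 0 to 5 of 24 and 0 to 1 of 9 at an unadjusted p under 0.05. In the fit with the block, Polycomb genes gave 2 higher and 2 lower calls without and 3 higher and 5 lower with cytokines, and the Trithorax and demethylase genes 1 higher and 1 lower without and 2 higher and 1 lower with them. Over all genes that fit called 15.9% higher and 17.5% lower without and 17.9% higher and 19.1% lower with cytokines. Of 7 retinoic acid genes tested, Cyp26b1, which degrades retinoic acid, was lower in A17.2 cells with cytokines (log2 fold change -2.10, SE 0.45, edgeR adjusted p = 0.0191) and higher with cytokines in control cells (2.27, SE 0.45, edgeR adjusted p = 0.0151). Aldh1a1, which makes retinoic acid, was also higher with cytokines in control cells (1.49, SE 0.33, edgeR adjusted p = 0.0302). In A17.2 cells the cytokine changes were 1.06 (SE 0.49) and 1.26 (SE 0.32) and did not pass. With the block Aldh1a1 passed in A17.2 cells too (1.25, edgeR adjusted p = 0.00323) and Cyp26b1 did not (1.02, edgeR adjusted p = 0.115). The difference between the cells was not called for either gene (edgeR adjusted p = 1). With the block, 1 of the 7 retinoic acid genes was lower in A17.2 cells without cytokines and 3 with them, and 0 were higher. Rarg was lower in both states (log2 fold changes -0.45 and -0.82, edgeR adjusted p = 0.0408 and 0.00111). Rxra was lower with cytokines (-0.63, edgeR adjusted p = 0.000537). Without the block neither passed (edgeR adjusted p = 0.718 and 0.305 for Rarg, 0.436 for Rxra with cytokines). The Cdx genes, upstream regulators of HOX genes in the gut, lay at a mean of 0.0142 CPM or less in every group.

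Of 18 genes flanking the clusters, 13 were tested in the same fit. Mtx2, on the 3′ side of the Hoxd cluster, lay at means of 48.3 and 40.6 CPM in control and 48.3 and 45.9 CPM in A17.2 cells, and Lnpk, on the 5′ side beyond Evx2, at 24.8 and 22.8 CPM in control and 18.1 and 21.9 CPM in A17.2 cells, with no call for either (edgeR). With the block Lnpk was lower in A17.2 cells without cytokines (log2 fold change -0.45, edgeR adjusted p = 0.0097) and not called with them (-0.07, edgeR adjusted p = 0.707). Of the 13, the fit with the block called 0 higher and 4 lower without and 2 higher and 3 lower with cytokines. Over all genes that fit called 15.9% higher and 17.5% lower without and 17.9% higher and 19.1% lower with cytokines. In the fit without the block, 1 of the 13 was lower in A17.2 cells without and 2 with cytokines, and 0 were higher. Over all genes 3.57% were lower without and 3.68% with cytokines. The cytokines raised 2 of the 13 in each kind of cell, against 3.14% of all genes in control and 3.85% in A17.2 cells. Atp5g2, listed as flanking the Hoxc cluster, was lower in A17.2 cells without (log2 fold change -0.66, SE 0.15, edgeR adjusted p = 0.0253) and with cytokines (-0.59, SE 0.15, edgeR adjusted p = 0.0426). Snx10, listed as flanking the Hoxa cluster, was lower in A17.2 cells with cytokines (-0.58, edgeR adjusted p = 0.0254). It rose with cytokines in control (1.92, SE 0.14, edgeR adjusted p = 1.2e-05) and in A17.2 cells (1.73, SE 0.14, edgeR adjusted p = 1.17e-05). Nfe2l1, listed as flanking the Hoxb cluster, rose by 0.89 and 0.96 (both SE 0.17, edgeR adjusted p = 0.0117 and 0.00525). No HOX gene passed the test of the cytokines.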

How the data were processed

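RNA of 12 libraries of MC38CEA cells (poly(A) RNA, Ion Total RNA-Seq Kit v2) was counted by the authors, who deposited raw read counts per gene symbol, not normalised. The genome build was mm10 per the submitters' processing notes, and no source used here names the aligner, the counter or the strand setting. The tables of the authors' own comparisons hold log2 fold changes and p-values and were not used. The libraries held 16592831 to 35861103 counts over 43271 genes, of which 10997 had no read, so the precision of genes with few counts is limited by counting error.

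Counts were scaled by TMM and tested with edgeR's quasi-likelihood test (edgeR 4.0.16, limma 3.58.1, R 4.3.3) in 1 fit over the 4 groups, after edgeR's filter on low counts by group. P-values were adjusted by Benjamini-Hochberg over the 15649 genes tested, at 0.05, and all tests were two-sided. The SE of a log2 fold change was its size divided by the square root of F. The steps were tested on simulated data. DESeq2 1.42.0, other filters and scalings, a fit of the compared groups alone, leaving out each library and the replicate number as a block were the alternatives.

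The replicate number paired the libraries: after subtracting group means, r was 0.309 to 0.850 in the 18 pairs sharing a number, all over 0.1, and -0.751 to 0.455 in the 36 other pairs. The labels give the numbers as biological replicates and do not say what a number shares. Exon lengths and positions came from GENCODE M21 (GRCm38), where a RefSeq length had been planned, and upstream sequences from RefSeq (GRCm38.p6).

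All 39 HOX genes were counted. The values of 1 of them are not reported here and are left out of the figures, while the counts of genes include it. The others with a mean raw count of at least 10 or a call were given by library. Of the other lists, up to 4 called members with the lowest adjusted p were named, and further genes were chosen after their values were seen. The members, lists and tests were chosen with earlier results of these data known.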

Additional observations from a re-analysis of the deposited data

How the results depend on the processing

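The number of HOX genes called in A17.2 against control cells without cytokines, 4, was 1 in a fit of the compared groups alone (Hoxd13) and 14 with the replicate block, and 1 to 4 when each library was left out. With cytokines the number, 3, was 5 by DESeq2 (with Hoxb8 and Hoxc10), 13 with the replicate block, 5 without the libraries numbered 1, an alternative chosen after seeing the data, and 2 to 4 when each library was left out. The block kept every HOX call made without it. The counts for the cytokines and for the difference of responses stayed at 0 in every alternative, and 26 HOX genes were expressed by the rule used and 24 to 27 by the others. Over all genes, 1006 and 1072 were called without and with cytokines, against 1692 and 1900 by DESeq2, 358 and 407 in the compared groups alone, 5225 and 5791 with the block, 1533 and 1694 without the libraries numbered 1, and 445 to 1092 and 304 to 1062 when each library was left out. For the cytokines, 520 genes in control and 667 in A17.2 cells were called, against 811 and 998 by DESeq2 and 3021 and 2751 with the block. The difference of responses gave 0 genes, against 26 by DESeq2, 28 without a filter, 65 with the block and 9 without unstimulated A17.2 library 3. No called value changed sign. The causes were not tested. For the members under the filter other than Hoxb8, no difference was detectable at this depth.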

Other observations

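The noncoding genes of the HOX clusters had few reads. Of 15 listed, 6 were tested and 0 called in any comparison (edgeR, with or without the replicate block, and 0 of 6 at an unadjusted p under 0.05). Hoxa11os, antisense to the silent Hoxa11, had 0, 0 and 0 counts in unstimulated control libraries 1 to 3 and 0, 0 and 3 with cytokines, against 4, 5 and 7 and then 12, 4 and 7 in A17.2 cells. Hoxaas2 had 8, 1 and 5 and then 5, 10 and 4 counts in control cells, against 23, 10 and 5 and then 24, 9 and 12 in A17.2 cells. Both were picked out after their values had been seen. Hotair, the long noncoding RNA of the Hoxc cluster, had 1 to 19 counts in a library and Hotairm1, of the Hoxa cluster, 11 to 54. Hoxd3os1, antisense within the Hoxd cluster, had 32 to 133 counts. For these 3 genes library 1 had the highest raw count of its group, except for Hotair and Hoxd3os1 in stimulated control cells. There Hotair had 5, 5 and 1 and Hoxd3os1 40, 44 and 36 counts. Stimulated control library 1 held 16592831 counts in all, against 26877210 and 23071688 in libraries 2 and 3. Unstimulated control library 1 held 35861103, against 21235610 and 23690925. Raw counts thus do not rank levels between libraries with such unlike totals.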
